A study of Bos taurus with 6 samples.

Results

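The HOX genes of the HOXA, HOXB, HOXC and HOXD clusters were described in bovine fetal fibroblasts (bEFs). The members were every row of the deposited gene table whose name was HOXA, HOXB, HOXC or HOXD followed by a number, which gave 31 of 17663 genes. There were 11 HOXA genes on chromosome 4, 8 HOXB genes on chromosome 19, 9 HOXC genes on chromosome 5 and 3 HOXD genes on chromosome 2. RefSeq (ARS-UCD2.0) names 39 such genes in cattle and all 31 members matched it by symbol, while HOXB1, HOXB13, HOXD1 and HOXD9 to HOXD13 were not analysed here.

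HOX genes encode homeodomain transcription factors that give cells their position along the head to tail axis. Within a cluster the genes are numbered in the order in which they lie: low numbers are expressed from the hindbrain and neck backwards, and high numbers only towards the tail end of the trunk, the limbs and the genital region. Cultured fibroblasts are known to keep much of the HOX pattern of the body site they came from, through Polycomb and trithorax proteins that hold each cluster region off or on.

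RNA-seq was carried out on poly(A) RNA from primary cultures of 3 fat-1 transgenic (FT) fetuses and 3 wild-type (WT) Luxi fetuses, all of them 50 to 60 days old. The fat-1 transgene comes from Caenorhabditis elegans and encodes a desaturase acting on polyunsaturated fatty acids; its promoter and the breed of the FT fetuses were not given in the sources used here. Per the study's methods, cells were released with collagenase from fetal tissue without head, limbs, bones or internal organs. Each library is a bulk culture from a single fetus, so fewer cells of a type and less RNA per cell cannot be told apart, and p-values measure the spread between these 6 samples.

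Total counts were 63366834, 48167642 and 54204446 in FT_1, FT_2 and FT_3, and 69777641, 51310741 and 54271927 in WT_1, WT_2 and WT_3. The fibroblast label was checked against 10 fibroblast markers, of which all 10 were above 1 FPKM (fragments scaled by gene length and by library size) in every library. Their summed FPKM was 6828, 17047 and 16783 in FT_1, FT_2 and FT_3 and 17821, 17272 and 17360 in WT_1, WT_2 and WT_3. VIM, an intermediate filament of mesenchymal cells, had the highest mean and was at 1244, 3850 and 4171 FPKM in FT_1, FT_2 and FT_3 and at 7891, 8178 and 7312 FPKM in WT_1, WT_2 and WT_3 (log2 fold change -1.17, edgeR adjusted p = 0.0902; called lower by limma on log2(FPKM + 1), at -1.52 and adjusted p = 0.0462); DCN, a matrix proteoglycan, was above it in FT_1 and FT_2. All the libraries therefore carried the fibroblast genes, and FT_1 carried them at the lowest summed level.

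FT_1 stood apart from FT_2 and FT_3. Across the 13482 genes that were tested, the median absolute log2 difference in normalised count was 0.39 between FT_1 and FT_2 and 0.40 between FT_1 and FT_3, whereas it was 0.12 between FT_2 and FT_3. Within WT cells the same median lay between 0.13 and 0.17. For the 16 HOX genes tested, the medians were 2.01 and 2.15 for FT_1 against FT_2 and FT_3, 0.24 for FT_2 against FT_3, and 0.32 to 0.49 within WT cells. FT_1 was as far from its own group in HOX expression as FT_2 and FT_3 were from WT cells, where the medians were 1.56 to 2.05. Against WT cells, FT_1 had HOX medians of 0.72 to 1.46. Over all genes tested, its medians against WT cells were 0.61 to 0.64, where those of FT_2 and FT_3 were 0.50 to 0.57. The HOX calls are therefore given with and without FT_1; that division was chosen after the values were seen.

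Markers of other cell types also moved with FT_1. The 8 epithelial markers summed to 391 FPKM in FT_1, to 15.3 and 15.1 in FT_2 and FT_3, and to 10.3, 7.94 and 14.3 in WT_1, WT_2 and WT_3. KRT5, a keratin of basal epithelium and the most abundant of them in FT_1, was at 172, 2.57 and 1.63 FPKM in FT_1, FT_2 and FT_3 and at 0 in all 3 WT libraries. In the other 5 libraries the most abundant was the cadherin gene CDH1, at 36.3 FPKM in FT_1, 7.11 and 8.41 FPKM in FT_2 and FT_3 and 10.0, 7.83 and 13.9 FPKM in WT_1, WT_2 and WT_3. EPCAM, which defines simple epithelium, was at 0.57 FPKM in FT_1 and at 0 in the other 5 libraries, and GRHL2, an epithelial transcription factor, was at 0.03 FPKM in FT_1 and at 0 elsewhere. TP63, a transcription factor of basal epithelium, was at 8.75 FPKM in FT_1 and at most 0.07 FPKM in the other 5 libraries (edgeR adjusted p = 0.116). Keratins and TP63 were thus far higher in FT_1 than in any other library, while EPCAM and GRHL2 were at or under 0.57 FPKM in every library. CLDN4, of the same list, was higher in every FT library, at 3.65, 3.39 and 3.82 FPKM in FT_1, FT_2 and FT_3. In WT_1, WT_2 and WT_3 it was at 0.20, 0.09 and 0.33 FPKM (log2 fold change 4.22, edgeR adjusted p = 0.00184).

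The mesothelial markers in the table, 6 of 8 listed, summed to 301, 46.4 and 47.1 FPKM in FT_1, FT_2 and FT_3 and to 2.35, 3.48 and 3.34 in WT_1, WT_2 and WT_3. MSLN, a surface protein of mesothelium and the most abundant, was high in all 3 FT libraries, at 199, 44.9 and 46.2 FPKM, against 2.08, 3.18 and 3.06 in WT cells. The Wilms tumour gene WT1, which defines mesothelium, was at 0 in FT cells and at most 0.05 FPKM in WT cells. The other genes of the list were highest in FT_1. KRT8 and KRT18, keratins also found in simple epithelium, were at 84.1 and 11.2 FPKM in FT_1, at 0.18 to 0.95 FPKM in FT_2 and FT_3 and at 0 in WT cells; KRT19 was at 6.26 FPKM in FT_1 and at most 0.07 FPKM elsewhere, and UPK3B was at 1.03 against 0.09 to 0.25 FPKM. The part of these marker genes in the HOX results was not tested.

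Of the 31 HOX genes, 16 had enough counts for the test, and 5 rose in FT cells: HOXA9, HOXC4, HOXC6, HOXC8 and HOXC10. A gene was called when the adjusted p (edgeR quasi-likelihood test, Benjamini-Hochberg over all genes tested) was under 0.05 and the absolute log2 fold change was over 1. By that rule 8.39% of all genes tested were higher and 7.56% were lower in FT cells. None of the HOX genes was called lower by edgeR, and the number lower was 0 at an unadjusted p under 0.05 and 0 with DESeq2 and with limma, which tested 11 HOX genes. The median log2 fold change was 1.49 over the 16 HOX genes, and 1.49 with HOXA9 placed at its lower bound, beside 0.03 over all genes tested. However, 6 of the 16 (HOXA5, HOXA9, HOXB6, HOXC6, HOXC8 and HOXC10) needed FT libraries to pass the count minimum, so neither the count nor the median stands for all members.

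Without FT_1, 21 HOX genes were tested and 13 were called higher, namely HOXA9, HOXB2, HOXB3, HOXB7, HOXB9, HOXC4, HOXC6, HOXC8, HOXC9, HOXC10, HOXC11, HOXC12 and HOXC13. Beside these, 10.8% of all genes tested in that fit were higher and 11.7% were lower, and 0 HOX genes were lower. All 5 genes called with every library were among the 13. Of the 13, 5 (HOXA9, HOXB9, HOXC6, HOXC11 and HOXC12) passed the count minimum of that fit only through FT_2 and FT_3, where they are high, and the other 8 would have passed it on WT libraries. In FPKM, all FT libraries lay above all WT libraries for 6 of the 16 genes tested and below them for 0, where 21.8% of all genes tested lay above and 36.9% below. For every such gene the exact two-sided permutation p was 0.10, the smallest that 3 libraries against 3 allow. Among these 6, HOXA9, HOXC6, HOXC8 and HOXC10 needed FT libraries to be tested. HOXD8 lay below in all FT libraries but did not pass the count minimum. The counts of 6 and 0 therefore do not stand for all members.

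**Figure D1:**
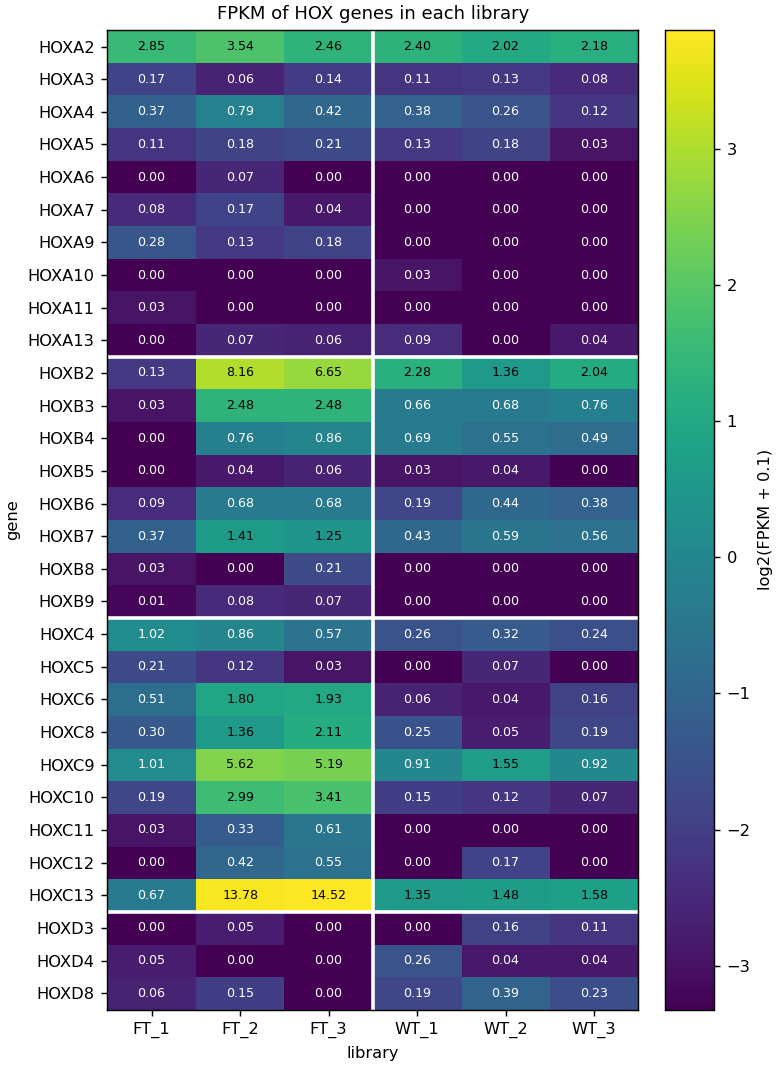
FPKM of HOX genes (rows, in cluster and number order) in each FT and WT library (columns), with colour showing log2(FPKM + 0.1) and the FPKM printed in each cell. FT_2 and FT_3 share high HOXB2 and HOXC13, whereas FT_1 has 0.13 and 0.67 FPKM of these genes.

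The summed HOX level set FT_2 and FT_3 apart from every other library. The 31 genes summed to 46.1 and 44.8 FPKM in FT_2 and FT_3, to 8.70 in FT_1, and to 10.97, 10.7 and 10.3 in WT_1, WT_2 and WT_3. HOXC13 was the most abundant HOX gene in FT_2 and FT_3, and HOXA2 in the other 4 libraries. FT_1 was therefore nearer to WT cells than to FT_2 and FT_3 in its HOX total, though below every WT library, and it shared its leading gene with WT cells. It did not resemble WT cells in how that total was divided. HOXB made up 7.59% of the HOX total in FT_1, 29.5% and 27.4% in FT_2 and FT_3, and 34.2% to 41.1% in WT cells, whereas HOXC made up 45.3% in FT_1, 59.2% and 64.6% in FT_2 and FT_3 and 27.2% to 35.5% in WT cells.

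**Figure D2:**
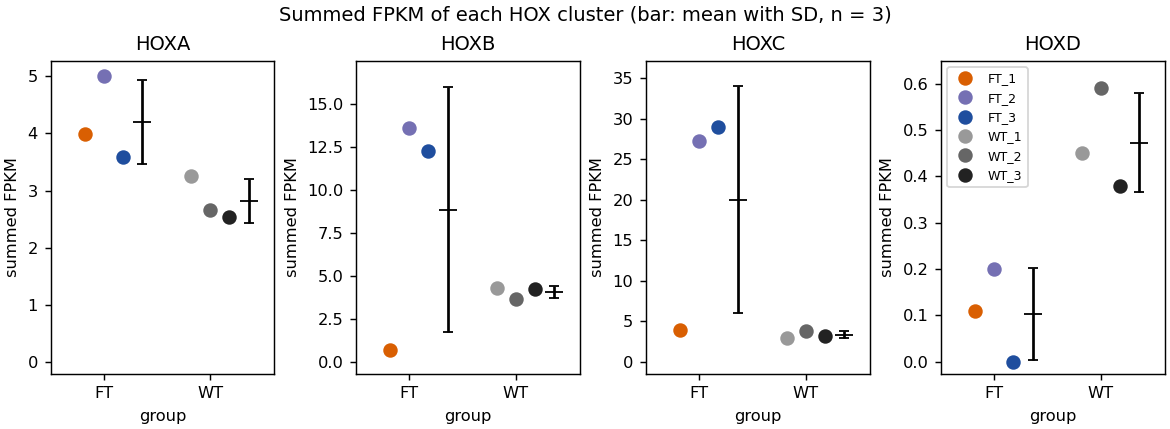
Summed FPKM of the HOXA, HOXB, HOXC and HOXD genes in each library, with 1 point per library and the mean with SD (n = 3) beside each group. For HOXB, FT_1 at 0.66 lies below all WT libraries while FT_2 and FT_3 at 13.6 and 12.3 lie above them.

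HOXC was the cluster with the largest summed difference between FT and WT cells. Its genes summed to 3.94, 27.3 and 28.9 FPKM in FT_1, FT_2 and FT_3 (mean 20 ± 14 SD, n = 3) and to 2.98, 3.80 and 3.16 in WT_1, WT_2 and WT_3 (3.31 ± 0.431 SD, n = 3). FT_2 and FT_3 were 8.48-fold above the WT mean, and FT_1 was 1.19-fold above it. The 9 genes lay between positions 25977799 and 26093573 of chromosome 5 in the authors' table, whose cattle build was not named in the sources used here. Of these 9, 6 were tested and 4 were called higher, beside 8.39% of all genes tested, but 3 of the 4 (HOXC6, HOXC8 and HOXC10) needed FT libraries to be tested. Without FT_1 all 8 that were tested were higher, beside 10.8% of all genes, and 3 of them (HOXC6, HOXC11 and HOXC12) could be tested only through FT_2 and FT_3.

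HOXC4, the foremost gene of the cluster, which helps to pattern the neck vertebrae, was higher in every FT library. Its level was 1.02, 0.86 and 0.57 FPKM in FT_1, FT_2 and FT_3 and 0.26, 0.32 and 0.24 FPKM in WT_1, WT_2 and WT_3. FT_1 had the highest value, and the groups did not overlap. The log2 fold change was 1.70 (SE 0.34, edgeR quasi-likelihood adjusted p = 0.0107), higher in 3 of 3 FT libraries, and 1.52 without FT_1 (adjusted p = 0.00615). The call was lost without WT_1.

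HOXC6, expressed from about the forelimb level backwards, was called under every setting that was tried. Its level was 0.51, 1.80 and 1.93 FPKM in FT_1, FT_2 and FT_3 against 0.06, 0.04 and 0.16 FPKM in WT_1, WT_2 and WT_3. All 3 FT libraries lay above WT cells, with FT_1 between the WT libraries and the other two FT libraries. Its log2 fold change was 4.15 (SE 0.78, edgeR adjusted p = 0.00915) and 4.57 without FT_1 (adjusted p = 1.06e-05). With limma on log2(FPKM + 1), HOXC6 was the single HOX gene called (log2 fold change 1.09 on that scale, adjusted p = 0.0228).

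HOXC8, which patterns the thoracic region, was at 0.30, 1.36 and 2.11 FPKM in FT_1, FT_2 and FT_3 and at 0.25, 0.05 and 0.19 FPKM in WT_1, WT_2 and WT_3. FT_1 was just above the highest WT library, and FT_2 and FT_3 were well above it. The log2 fold change was 3.06 (SE 0.89, edgeR adjusted p = 0.0383), and 3.50 without FT_1 (adjusted p = 1.60e-04). HOXC10, a gene of the lumbar region and hindlimb, was at 0.19, 2.99 and 3.41 FPKM in FT_1, FT_2 and FT_3 and at 0.15, 0.12 and 0.07 FPKM in WT_1, WT_2 and WT_3. Again FT_1 was barely outside the WT range. Its log2 fold change was 4.38 (SE 1.08, edgeR adjusted p = 0.023), and 4.90 without FT_1 (adjusted p = 6.73e-07). For HOXC8 and HOXC10 the call was lost when any library other than FT_1 was left out.

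HOXC13, the last gene of the cluster, which is needed for hair and nail formation, had the highest mean level of all HOX genes. It was at 0.67, 13.8 and 14.5 FPKM in FT_1, FT_2 and FT_3 and at 1.35, 1.48 and 1.58 FPKM in WT_1, WT_2 and WT_3. FT_1 was below every WT library while FT_2 and FT_3 were far above, so the groups overlapped. Over all libraries HOXC13 did not pass the test (log2 fold change 2.88, SE 1.02, edgeR adjusted p = 0.068; exact permutation p = 0.40), although DESeq2 called it (adjusted p = 0.00212), and without FT_1 it was called higher (log2 fold change 3.43, SE 0.11, adjusted p = 3.45e-08).

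HOXC9, a thoracic gene, was at 1.01, 5.62 and 5.19 FPKM in FT_1, FT_2 and FT_3 and at 0.91, 1.55 and 0.92 FPKM in WT_1, WT_2 and WT_3. FT_1 lay inside the WT range, and the edgeR adjusted p was 0.0637 with all libraries (0.0127 with DESeq2, which called it) and 5.11e-05 without FT_1. HOXC11, active at the lumbosacral level, had 3, 20 and 41 counts in FT_1, FT_2 and FT_3 and 0 in every WT library, which made it at least 5.64-fold higher in FT cells. This lower bound takes 12 counts over the WT group, or 3 steps of 4 counts, because low values of the deposited counts pile up at 4. HOXC5 and HOXC12 stayed at or under 0.55 FPKM in every library. HOXC9, HOXC11 and the other genes given in full here that were neither called nor the leading member of a cluster were chosen after their values were seen.

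Set against the WT mean, FT_1 differed from gene to gene along HOXC. It held 3.73 times the WT mean FPKM of HOXC4 and 5.88 times that of HOXC6, but 1.84 times that of HOXC8, 0.896 times that of HOXC9, 1.68 times that of HOXC10 and 0.456 times that of HOXC13. In FT_2 and FT_3 the mean was 2.62 times the WT mean for HOXC4, 21.5 for HOXC6, 10.6 for HOXC8, 4.80 for HOXC9, 28.2 for HOXC10 and 9.63 for HOXC13. FT_2 and FT_3 thus had more of all 6 of these genes, and the size of the ratio did not follow the order of the genes. The FT_1 ratios rest on a single library and were not tested.

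**Figure D3:**
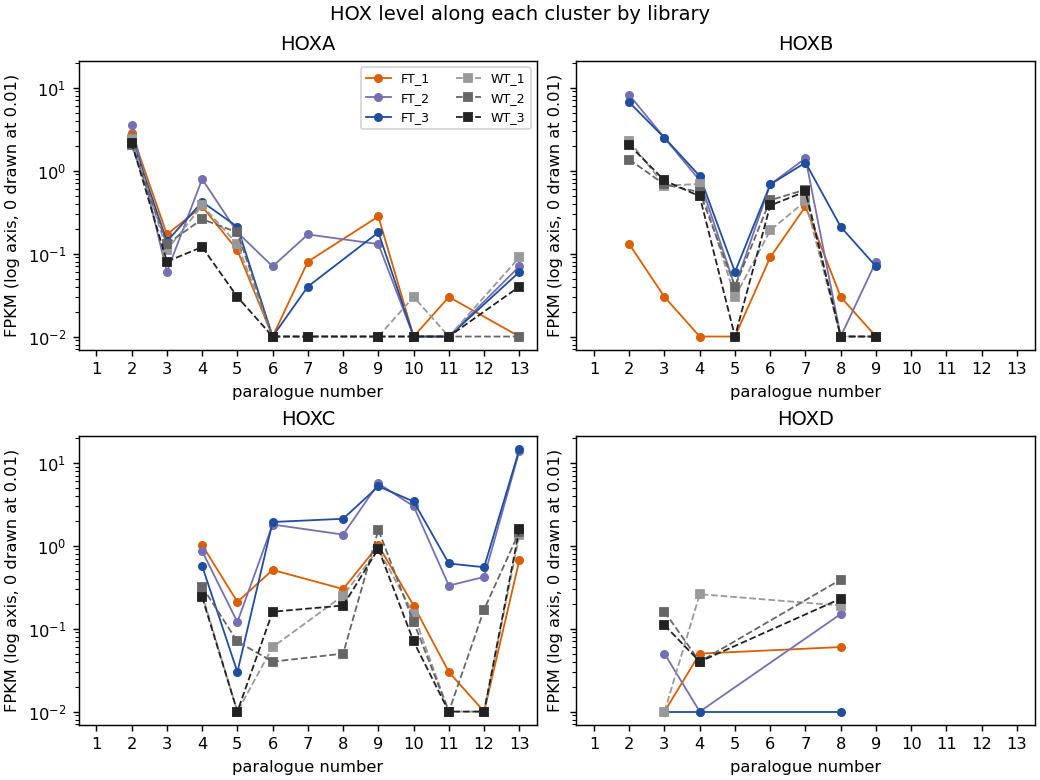
FPKM (log axis, with 0 drawn at 0.01) against paralogue number in the HOXA, HOXB, HOXC and HOXD clusters, with 1 line per library (solid for FT, dashed for WT). In HOXC the FT_1 line runs with FT_2 and FT_3 at HOXC4 and with the WT lines from HOXC8 to HOXC10; in HOXB it runs below all other lines at HOXB2, HOXB3 and HOXB4.

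Of the 6 rows without a HOX name inside the HOXC cluster, 3 lying side by side also set FT_2 and FT_3 apart, and the other 3 had at most 7 counts in any library; all were looked at after the HOX values were seen. ENSBTAG00000052715 lies between HOXC11 and HOXC12, on the strand opposite to the HOXC genes, at positions 26066531 to 26068539 of chromosome 5. Its level was 0.64, 38.0 and 33.6 FPKM in FT_1, FT_2 and FT_3 and 1.81, 2.74 and 3.38 FPKM in WT_1, WT_2 and WT_3. FT_1 was again lowest, and the level in FT_2 and FT_3 was above that of any HOX gene. This row had a log2 fold change of 3.34 (SE 1.26, edgeR adjusted p = 0.0819) with all libraries and 3.93 without FT_1 (adjusted p = 5.41e-07). The short rows RF01904 and RF01905 beside it, on the HOXC strand, were at 0.20 and 0.10 FPKM in FT_1, at 16.4 to 28.0 FPKM in FT_2 and FT_3, and at 1.09 to 2.32 FPKM in WT cells. In the human genome the long noncoding RNA HOTAIR is transcribed from the corresponding interval, on the strand opposite to the HOXC genes; the table gives these rows no such name.

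HOXB separated FT_1 from all the other libraries. The 8 genes, between positions 37866942 and 37948673 of chromosome 19, summed to 0.66, 13.6 and 12.3 FPKM in FT_1, FT_2 and FT_3 (mean 8.84 ± 7.12 SD, n = 3) and to 4.28, 3.66 and 4.23 FPKM in WT_1, WT_2 and WT_3 (4.06 ± 0.344 SD, n = 3). The WT mean was 6.15-fold above FT_1, and FT_2 and FT_3 were 3.19-fold above the WT mean. Of the 5 HOXB genes tested, 0 were called by edgeR, with 0 at an unadjusted p under 0.05 and 0 with DESeq2 or limma, which did not test HOXB6. Without FT_1, 4 of 6 were called higher (HOXB2, HOXB3, HOXB7 and HOXB9), beside 10.8% of all genes, and HOXB9 could be tested only through FT_2 and FT_3. In normalised counts FT_1 was the lowest of the 6 libraries for all 5 HOXB genes tested, beside 28.3% of all genes tested.

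HOXB2, which acts in the hindbrain, had the highest mean level of the cluster. It was at 0.13, 8.16 and 6.65 FPKM in FT_1, FT_2 and FT_3 and at 2.28, 1.36 and 2.04 FPKM in WT_1, WT_2 and WT_3. FT_1 was below and FT_2 and FT_3 were above every WT library. HOXB2 had a log2 fold change of 1.56 (SE 1.16, edgeR adjusted p = 0.324; exact permutation p = 0.40) with all libraries, and 2.13 (SE 0.21, adjusted p = 1.46e-05) without FT_1.

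HOXB3, its neighbour in the hindbrain and neck, was at 0.03, 2.48 and 2.48 FPKM in FT_1, FT_2 and FT_3 and at 0.66, 0.68 and 0.76 FPKM in WT_1, WT_2 and WT_3. As for HOXB2, FT_1 was below and FT_2 and FT_3 were above every WT library, and without FT_1 the log2 fold change was 1.99 (edgeR adjusted p = 4.29e-06). HOXB4, a neck gene also known from blood stem cells, had 0, 75 and 97 counts in FT_1, FT_2 and FT_3 and 100, 59 and 55 in WT_1, WT_2 and WT_3. In FPKM this was 0, 0.76 and 0.86 in FT_1, FT_2 and FT_3 and 0.69, 0.55 and 0.49 in WT_1, WT_2 and WT_3, so that FT_1 alone was low and FT_2 and FT_3 were just above WT cells. HOXB4 had a log2 fold change of 0.06 (SE 1.32, edgeR adjusted p = 0.976), which turned to -0.11 when scaled by library totals alone, and 0.64 without FT_1 (adjusted p = 0.0999).

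HOXB7, a trunk gene, differed less between the libraries, with 0.37, 1.41 and 1.25 FPKM in FT_1, FT_2 and FT_3 and 0.43, 0.59 and 0.56 FPKM in WT_1, WT_2 and WT_3. FT_1 was near the lowest WT library, and without FT_1 the log2 fold change was 1.51 (edgeR adjusted p = 0.00189). HOXB9, the rearmost HOXB gene measured, had 4, 17 and 17 counts in FT_1, FT_2 and FT_3 and 0 in all WT libraries, at least 3.35-fold higher in FT cells. HOXB6 ranged from 0.09 to 0.68 FPKM, and HOXB5 and HOXB8 did not exceed 0.21 FPKM in any library.

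**Figure D4:**
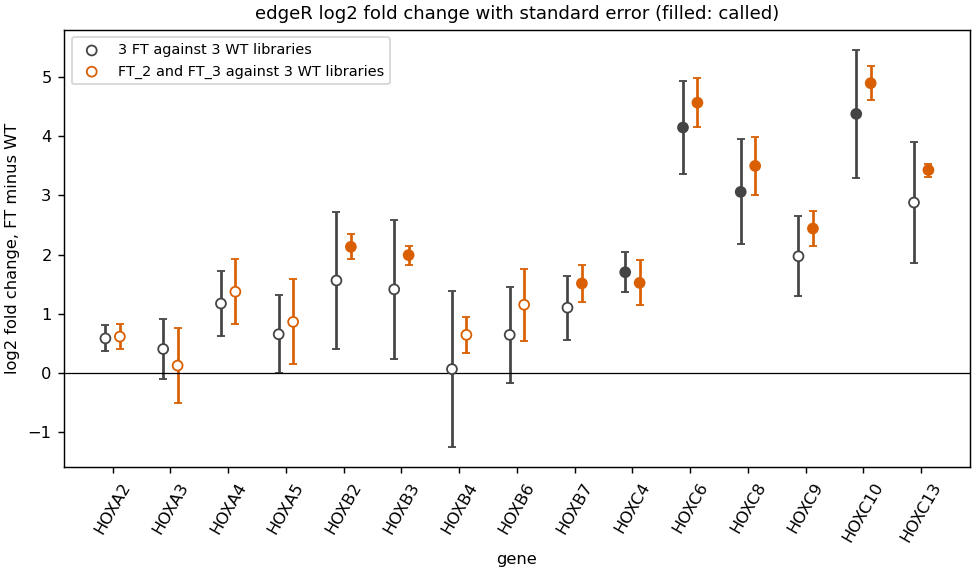
The log2 fold change (FT minus WT) with its standard error from edgeR for the 15 HOX genes tested that had counts in WT cells, with all 6 libraries (dark) and without FT_1 (orange); filled points were called. Error bars of HOXB2, HOXB3, HOXC10 and HOXC13 are shorter without FT_1, as with an SE of 1.16 against 0.21 for HOXB2.

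In HOXA the summed level of FT_1 lay between those of FT_2 and FT_3. Its 11 genes, between positions 68842500 and 68948264 of chromosome 4, summed to 3.99, 5.01 and 3.59 FPKM in FT_1, FT_2 and FT_3 (mean 4.20 ± 0.732 SD, n = 3) and to 3.26, 2.66 and 2.53 FPKM in WT_1, WT_2 and WT_3 (2.82 ± 0.389 SD, n = 3). HOXA2, which patterns the hindbrain and pharyngeal arches, made up most of this sum and was at 2.85, 3.54 and 2.46 FPKM in FT_1, FT_2 and FT_3 and at 2.40, 2.02 and 2.18 FPKM in WT_1, WT_2 and WT_3. All FT libraries were above all WT libraries, by a small margin. The log2 fold change was 0.58 (SE 0.22, edgeR adjusted p = 0.0817), and 0.61 without FT_1 (adjusted p = 0.0312), which did not pass the fold threshold.

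HOXA9, a gene of the lower trunk that is also active in blood stem cells, was detected in every FT library and in no WT library. Its counts were 38, 14 and 21 in FT_1, FT_2 and FT_3, or 0.28, 0.13 and 0.18 FPKM, and 0 in WT_1, WT_2 and WT_3. FT_1 was here the highest, and the gene was at least 6.44-fold higher in FT cells (edgeR adjusted p = 0.00727, higher in 3 of 3 libraries; 0.00202 without FT_1). HOXA7, of the thoracic region, had 10, 16 and 4 counts in FT_1, FT_2 and FT_3 and 0 in all WT libraries, at least 2.65-fold higher, and was too low to be tested. HOXA9 was the single call among the 5 HOXA genes tested, beside 8.39% of all genes with all libraries and 10.8% without FT_1, and in both fits it could be tested only through FT libraries. These levels lie far below those of HOXC9 or HOXC13 in FT_2 and FT_3.

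The remaining HOXA genes were low in both groups. HOXA4, a neck gene, ranged from 0.37 to 0.79 FPKM in FT cells and from 0.12 to 0.38 in WT cells, and did not pass the test (log2 fold change 1.17, SE 0.55, edgeR adjusted p = 0.141; 1.37 and adjusted p = 0.0534 without FT_1). The HOXA3 row spans HOXA4 on the same strand, so reads of the 2 genes may have been shared and both values are uncertain. HOXA3 and HOXA5 lay at or under 0.21 FPKM in every library. HOXA6, HOXA10, HOXA11 and HOXA13 did not exceed 0.09 FPKM; HOXA13, which marks the far end of the limb and the genital region, had at most 8 counts in any library.

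The 3 HOXD genes measured, HOXD3, HOXD4 and HOXD8, were nearly silent, while HOXD1 and HOXD9 to HOXD13 were not analysed. FT_1 again lay between FT_2 and FT_3 in the sum of these 3, at 0.11 FPKM against 0.20 and 0. The WT sums, at 0.45, 0.59 and 0.38 FPKM in WT_1, WT_2 and WT_3, all lay above those of FT cells (log2 ratio -2.20). HOXD8, a trunk gene and the highest of the 3, was at 0.06, 0.15 and 0 FPKM in FT_1, FT_2 and FT_3 and at 0.19, 0.39 and 0.23 FPKM in WT_1, WT_2 and WT_3. It was the single HOX gene whose FT libraries all lay below all WT libraries, with 4, 7 and 0 counts against 12, 18 and 11. HOXD3 and HOXD4, genes of the neck region, had at most 31 counts in any library, and their rows overlap by 625 bases on the same strand. None of the 3 passed the count minimum over all libraries; without FT_1, HOXD3 and HOXD8 were tested and were not called (HOXD8 log2 fold change -1.58, edgeR adjusted p = 0.229).

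By paralogue number, all 5 calls lay among paralogues 4 to 13. Paralogues 1 to 3 had 6 genes, of which 4 were tested and 0 were called by edgeR, with 1 (HOXA2) at an unadjusted p under 0.05 and 0 with DESeq2 or limma, which did not test HOXA3. Among paralogues 4 to 8, 8 of 15 genes were tested and 3 were called higher, and among paralogues 9 to 13, 4 of 10 were tested and 2 were called higher, beside 8.39% of all genes tested. Without FT_1 the calls were 2 of 5, 4 of 9 and 7 of 7 genes tested in these classes, beside 10.8% of all genes. HOXC6 and HOXC8 among the calls for paralogues 4 to 8, and HOXA9 and HOXC10, the calls for paralogues 9 to 13, needed FT libraries to be tested at all, as did HOXC6 and 4 of the 7 (HOXA9, HOXB9, HOXC11 and HOXC12) without FT_1, so these counts do not compare the classes. Whether the classes differ was not tested.

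The share of the HOX total held by paralogues 9 to 13 was 25.5% in FT_1, 50.8% and 54.9% in FT_2 and FT_3, and 23.1%, 31% and 25.3% in WT_1, WT_2 and WT_3. That of paralogues 1 to 3 was 37.7% in FT_1, 31% and 26.4% in FT_2 and FT_3, and 41.3% to 51% in WT cells. FT_2 and FT_3 were therefore weighted to the rear class, mostly through HOXC13, and FT_1 was not. Paralogue group 10, of which HOXA10 and HOXC10 were measured, summed to 0.07 to 0.18 FPKM in WT cells, 0.19 FPKM in FT_1 and 2.99 and 3.41 FPKM in FT_2 and FT_3.

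Of the genes beside the clusters, those nearest to HOXC and HOXA on the higher-coordinate side were also called, 1 higher and 1 lower of 6 tested, beside 8.39% and 7.56% of all genes tested. CALCOCO1, an autophagy receptor gene past HOXC13, was at 59.2, 77.3 and 75.5 FPKM in FT_1, FT_2 and FT_3 and at 35.0, 34.6 and 40.6 FPKM in WT_1, WT_2 and WT_3 (log2 fold change 1.10, edgeR adjusted p = 0.00273). SKAP2, an adaptor protein gene beyond the HOXA cluster, fell by 1.69 on the log2 scale (edgeR adjusted p = 0.00405), with 4.44, 8.02 and 7.98 FPKM in FT cells and 26.0, 25.2 and 22.8 FPKM in WT cells. FT_1 lay on the FT side for both genes. HIBADH, SMUG1, MTX2 and LNPK were not called, and TTLL6 and SKAP1, on either side of HOXB, did not exceed 0.04 FPKM and were not tested.

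HOX proteins bind DNA together with cofactors of the PBX, MEIS and PKNOX families. All 11 cofactor and related genes were in the table and 10 were tested; 1 was higher, a share near the 8.39% of all genes tested, and the number lower was 0 by edgeR, at an unadjusted p under 0.05 and with DESeq2 or limma, which did not test PKNOX2. The gene that rose was TGIF2, a repressor related to MEIS, at 8.53, 3.63 and 3.85 FPKM in FT_1, FT_2 and FT_3 and 1.53, 1.91 and 2.06 FPKM in WT_1, WT_2 and WT_3. FT_1 was the highest, and the log2 fold change was 1.69 (edgeR adjusted p = 0.0152), or 1.20 without FT_1; the call was lost when any WT library was left out. Without FT_1, 2 of 10 were higher (MEIS3 and TGIF2), where 10.8% of all genes were. MEIS1, which had the highest mean over the 6 libraries, ranged from 21.7 to 33.0 FPKM over all 6 libraries, with log2 fold change -0.13 (edgeR adjusted p = 0.56). FT_1 stood apart for some cofactors, named after their values were seen: MEIS2 was at 9.04 FPKM in FT_1 and at 19.2 to 24.1 in the other 5 libraries, and TGIF1 was at 48.2 against 14.9 to 20.8 FPKM.

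All 28 Polycomb and trithorax genes were tested, and 4 rose, where 8.39% of all genes tested did. KDM6B, a demethylase that removes the Polycomb mark, was at 6.63, 5.61 and 6.30 FPKM in FT_1, FT_2 and FT_3 and at 2.58, 2.39 and 2.71 FPKM in WT_1, WT_2 and WT_3 (log2 fold change 1.43, edgeR adjusted p = 6.88e-04). KMT2A, the trithorax methyltransferase, was at 6.92, 5.59 and 5.74 FPKM in FT_1, FT_2 and FT_3 and at 2.93, 2.45 and 3.39 FPKM in WT_1, WT_2 and WT_3 (log2 fold change 1.21, edgeR adjusted p = 0.00224). The rise was shared by all 3 FT libraries for these genes, and for PCGF2, a Polycomb subunit, which fell short of the fold threshold without FT_1 (log2 fold change 0.96). Without FT_1, 5 of the 28 were higher and 0 were lower, where 10.8% and 11.7% of all genes were. No gene of the list was called lower by edgeR, DESeq2 or limma, although 3 were lower at an unadjusted p under 0.05. Among them EZH2, the methyltransferase that writes this mark, was at 7.54, 6.49 and 6.32 FPKM in FT_1, FT_2 and FT_3 and at 14.2, 15.9 and 13.1 FPKM in WT_1, WT_2 and WT_3 (log2 fold change -0.93, edgeR adjusted p = 0.00212). EZH2 was named after its values were seen. The most abundant gene, DPY30, a shared subunit of the methyltransferase complexes, ranged from 47.2 to 75.1 FPKM (log2 fold change -0.20, edgeR adjusted p = 0.30).

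Retinoic acid, WNT, FGF and GDF11 signals and the CDX factors switch on HOX genes in the embryo. Of 19 such genes listed, 13 were in the table and 9 were tested; 2 rose, where 8.39% of all genes tested did, and 0 fell by edgeR, at an unadjusted p under 0.05 and with DESeq2 or limma. CRABP1, which binds retinoic acid in the cytoplasm, was at 304, 164 and 139 FPKM in FT_1, FT_2 and FT_3 and at 3.01, 3.84 and 2.69 FPKM in WT_1, WT_2 and WT_3. Every FT library was far above WT cells (log2 fold change 6.14, SE 0.38, edgeR adjusted p = 5.40e-04; 5.75 without FT_1). GDF11, a ligand that promotes rear HOX genes, was at 6.10, 10.8 and 9.70 FPKM in FT_1, FT_2 and FT_3 and at 5.14, 3.78 and 5.34 FPKM in WT_1, WT_2 and WT_3 (log2 fold change 1.06, edgeR adjusted p = 0.0262). Its call was lost when any library other than FT_1 was left out.

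Among the same genes FT_1 again differed from FT_2 and FT_3. RARB, a retinoic acid receptor, was at 21.5, 0.03 and 0.09 FPKM in FT_1, FT_2 and FT_3 and at 0.33 to 0.41 FPKM in WT cells. CYP26B1, which degrades retinoic acid, was at 2.54, 12.9 and 13.3 FPKM in FT_1, FT_2 and FT_3 and at 21.5, 22.4 and 18.5 FPKM in WT_1, WT_2 and WT_3. RARB was thus high in FT_1 alone and CYP26B1 was lowest there; these genes were picked for their values in FT_1 and were not called over all libraries (edgeR adjusted p = 0.159 and 0.245). Without FT_1, 3 of 10 genes of the list were higher and 1, RARB, was lower, beside 10.8% and 11.7% of all genes. Of the higher genes, ALDH1A2 passed the count minimum only through FT_2 and FT_3, where it is high, and RARB passed it only through WT libraries, where it is higher than in FT_2 and FT_3.

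Positional genes outside the HOX clusters were measured for comparison. Of 40 listed, 32 were in the table and 23 were tested, of which 3 were higher and 1 was lower, where 8.39% and 7.56% of all genes tested were; these counts are near that background. Without FT_1, 25 were tested, 9 were higher and 3 were lower, where 10.8% and 11.7% of all genes were. Among these calls, ALX1, ALX4 and TLX1 passed the count minimum only through FT_2 and FT_3, where they are high. DLX5 and DLX6 passed it only through WT libraries, where they are high, so the counts without FT_1 do not stand for the list. SIX2, a homeobox gene of head and kidney mesenchyme, was at 7.55, 1.78 and 1.86 FPKM in FT_1, FT_2 and FT_3 and at 1.08, 0.70 and 0.76 FPKM in WT_1, WT_2 and WT_3. It was higher in every FT library and highest in FT_1 (log2 fold change 2.28, edgeR adjusted p = 0.0352; 1.26 without FT_1). The call was lost when any WT library was left out.

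TBX18, a mesenchymal T-box gene, was at 25.3, 20.8 and 23.4 FPKM in FT_1, FT_2 and FT_3 and at 10.6, 9.86 and 11.3 FPKM in WT_1, WT_2 and WT_3 (log2 fold change 1.29, edgeR adjusted p = 8.48e-04). MEOX1, a homeobox gene of the somites, fell by 3.06 on the log2 scale (edgeR adjusted p = 5.23e-04), with 2.73, 3.03 and 3.92 FPKM in FT cells and 33.7, 29.6 and 27.1 FPKM in WT cells. For these genes the 3 FT libraries lay together.

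Other positional genes, named after their values were seen, divided FT_1 from the rest as HOXB did. TBX15, a gene of trunk dermal mesenchyme with the highest mean of the list, was at 3.02, 33.7 and 32.3 FPKM in FT_1, FT_2 and FT_3 and at 25.0, 23.2 and 26.9 FPKM in WT_1, WT_2 and WT_3. PAX3, a gene of the dermomyotome and neural crest, was at 0.12, 5.57 and 6.02 FPKM in FT_1, FT_2 and FT_3 and at 5.31, 4.81 and 5.90 FPKM in WT_1, WT_2 and WT_3. Both were low in FT_1 alone. In the opposite direction, DLX5, a homeobox gene of the jaw and limb, was at 8.11, 0 and 0.04 FPKM in FT_1, FT_2 and FT_3 and at 0.41 to 0.53 FPKM in WT cells, and TBX1, a gene of the pharynx, was at 3.20 FPKM in FT_1 and at 0 in the other 5 libraries. SHOX2, a limb gene, was at 0.79 FPKM in FT_1, at 13.7 and 13.4 FPKM in FT_2 and FT_3 and at 5.17 to 6.62 FPKM in WT cells, so that here too FT_1 was below and FT_2 and FT_3 were above every WT library. EMX2 and EN1, both homeobox genes, stayed above 5 FPKM in all 6 libraries. EN1 was lowest in FT_1, at 5.90 FPKM against 6.58 to 9.93 FPKM in the other 5 libraries.

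**Figure D5:**
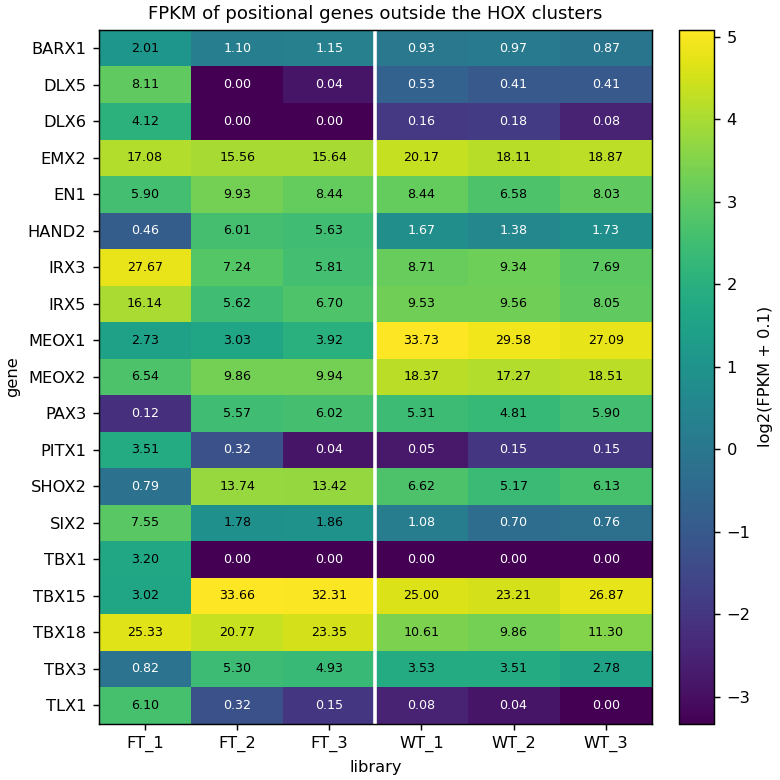
FPKM of positional genes outside the HOX clusters that exceeded 1 FPKM in any library (rows) in each FT and WT library (columns), with colour showing log2(FPKM + 0.1) and the FPKM printed in each cell. FT_1 alone is high for DLX5, DLX6 and TBX1 and low for TBX15 and PAX3, while MEOX1 is low in all 3 FT libraries.

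The remaining lists for other cell types had low sums, and the gene leading each is that with the highest mean over the 6 libraries. Their counts of calls stand beside 8.39% higher and 7.56% lower among all genes tested, and 10.8% and 11.7% without FT_1. Blood cell markers (6 of 9 in the table) summed to 5.17, 10.3 and 9.82 FPKM in FT_1, FT_2 and FT_3 and to 24.6, 23.1 and 23.2 FPKM in WT_1, WT_2 and WT_3, led by LAPTM5, with 1 of 4 tested lower (CD68). Neural and neural crest markers (5 of 10) summed to 5.03 to 7.54 FPKM, led by PAX6, and 0 of 2 tested were called (1 at an unadjusted p under 0.05, 0 with DESeq2 or limma). Skeletal muscle markers (6 of 9) summed to 3.87 to 5.83 FPKM in FT cells and 1.37 to 2.18 in WT cells, led by DES, with DES higher and MYH3 lower among 4 tested. The higher FT sum was that of DES, an intermediate filament gene at 5.74, 4.01 and 3.17 FPKM in FT_1, FT_2 and FT_3 and at most 0.07 FPKM in WT cells; MYF5, a muscle transcription factor, was at 0.03, 0.59 and 0.61 FPKM in FT_1, FT_2 and FT_3 and at 1.06, 1.31 and 1.93 FPKM in WT_1, WT_2 and WT_3. Endothelial markers (7 of 8, led by PECAM1) and cartilage markers (6 of 7, led by SOX9) summed to at most 1.56 and 2.36 FPKM in any library. Of the endothelial genes, 0 of 3 were called (0 at an unadjusted p under 0.05, 0 with DESeq2), and limma did not test them. Of the cartilage genes, 1 of 2 was lower (ACAN). Of the epithelial list 2 of 6 tested were higher (KRT15 and CLDN4), of the mesothelial list 1 of 4 (MSLN), and of the fibroblast list 1 of 10 (PDGFRA). Without FT_1 these counts were 4 of 6, 3 of 4 and 3 of 10, the last being LUM, PDGFRB and DCN and no longer PDGFRA (log2 fold change 0.89); the keratin genes added there (KRT5, KRT14, KRT8 and KRT18) were at 0 in every WT library and passed the count minimum only through FT libraries, as KRT15 and DES did in both fits. In that fit the lower calls were 2 of 4 blood genes (CD68 and LAPTM5), 1 of 2 neural genes (TUBB3), 2 of 4 muscle genes (MYH3 and MYF5), 1 of 4 endothelial genes (PECAM1) and 2 of 3 cartilage genes (ACAN and CNMD). CNMD in that fit, and MYH3 in both fits, passed the count minimum only through WT libraries, where they are high. With all libraries, CLDN4 also needed FT libraries to pass the count minimum, since WT_2 had 8 counts. The part of these cell types in the HOX levels was not tested.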

How the data were processed

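Poly(A) RNA of 3 FT and 3 WT bEF cultures was sequenced in pairs of reads. The deposited table holds, per gene, whole-number counts and FPKM values made by the authors; the submitters' processing notes list HISAT2 2.0, StringTie 1.3.0 and Bowtie 0.12.2 with the mouse build mm8, although the gene identifiers are of cattle, so the build is uncertain. Whether counting used strand was not given in the sources used here.

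The deposited counts were tested with edgeR 4.0.16 (R 4.3.3, TMM scaling, filterByExpr with a minimum count of 10, quasi-likelihood F test, Benjamini-Hochberg over 13482 genes). The fit was checked on simulated counts that gave every gene the same dispersion and held no outlying library. Changes were placed there only in genes above a mean count minimum. That check therefore does not cover the lowest HOX genes or the spread that FT_1 brought. Genes were called at an adjusted p under 0.05 where the log2 fold change also passed 1 in either direction. The SE was the log2 fold change divided by the square root of F. The deposited FPKM values gave levels, sums and exact permutation tests. Alternatives used DESeq2 1.42.0, limma 3.58.1, other scalings, filters and thresholds, a replicate block, and each library left out.

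Values in every library were given for called members and for the leading member of each cluster, and for other lists for up to 3 called genes in each direction and the most abundant gene. The lists were HOX cofactors, Polycomb and trithorax regulators, inducers of HOX expression, positional genes, and markers of fibroblasts, skeletal muscle, neural, endothelial, blood, epithelial, cartilage and mesothelial cells. Members and lists were chosen with earlier results of these data known. Results for some members and list genes are not reported here.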

Additional observations from a re-analysis of the deposited data

How the results depend on the processing

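The 5 HOX calls held with median-ratio size factors, with library totals alone and without a fold threshold. Library totals alone moved the median log2 fold change of all genes from 0.03 to -0.12 and the share of calls that were higher from 52.6% to 39.3%. HOX genes called numbered 8 with no filter on low counts, 1 and 2 with limma on log2(FPKM + 1) and log2(FPKM + 0.1), and 2 to 13 with each library left out, where 13 is the value without FT_1. With no filter, HOXA had 2 calls, HOXB 1 and paralogues 9 to 13 had 4. With a mean FPKM of at least 0.5, HOXA had 0 calls and paralogues 9 to 13 had 1, since HOXA9 was not tested. With DESeq2, and with an unadjusted p, paralogues 9 to 13 had 4 calls, with HOXC9 and HOXC13 added. The limma settings gave HOXA 0 and 0, HOXC 1 and 2, and paralogues 9 to 13 0 and 0, and paralogues 4 to 8 had 1 call with log2(FPKM + 1).

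Over the libraries left out, calls ranged from 0 to 4 for HOXB, 1 to 8 for HOXC, 0 to 2 for paralogues 1 to 3, 1 to 4 for paralogues 4 to 8 and 1 to 7 for paralogues 9 to 13. HOXB4, never called, turned to -0.11 with library totals, to -0.08 and -0.63 with limma, to -0.67 with the replicate block, and ranged from -0.48 to 0.64 with a library left out. Among single HOX genes, 206 alternative values kept direction and side of the threshold, 9 newly passed it and 19 no longer did.

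Across all genes, 423 and 671 were higher with the limma settings, which tested 12247 genes and gave 29.9% and 33.6% of calls as higher. Without a fold threshold 2714 were higher and 2547 lower. With a library left out, 728 to 1482 were higher and 713 to 1614 lower.

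Cofactors had 4 calls without a fold threshold and 0 to 2 with a library left out. Polycomb and trithorax genes had 2 with limma on log2(FPKM + 1) and 14 without a fold threshold. Inducers had 1 with library totals, 1 and 1 with limma, and 1 to 4 with a library left out. Positional genes had 2 with limma on log2(FPKM + 1), and 2 to 12 with a library left out. Where no cause is given, the cause was not tested.

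The replicate numbers did not pair the libraries: correlations of same-numbered libraries' deviations were -0.001, -0.02 and 0.018. With the replicate block, 2 HOX genes were called (HOXC4 and HOXC6; HOXA 0, HOXC 2, paralogues 9 to 13 0), cofactors had 0 calls and inducers 1.

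Depth limits the low genes: 15 of 31 HOX genes were below the count minimum, and a count of 0 in WT cells gives only a lower bound.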
